A study of Mus musculus with 6 samples.

Results

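The genes described are the secreted and membrane components of the Wnt pathway: 19 Wnt ligands, 10 Frizzled receptors, the co-receptors *Lrp5* and *Lrp6*, 4 R-spondins, the 3 R-spondin receptors *Lgr4* to *Lgr6*, 4 secreted Frizzled-related proteins, 4 Dickkopf proteins, *Wif1*, *Notum*, and the feedback regulators *Axin2*, *Rnf43* and *Znrf3*. The rule picks them by symbol and uses no measured value, though it was written with earlier results of these data known. All 51 were measured, of 18193 genes in all, each by its brightest probe set, by mean value, among those that name 1 gene. No filter on low values was applied, so no member was dropped. The fibroblasts came from tail tips of neonatal mice with a targeted knockout of *Hotair*, a long noncoding RNA of the Hoxc cluster, or from wild-type mice, both backcrossed to C57BL6. There were 3 arrays of knockout and 3 of wild-type cells, numbered 1 to 3 in each genotype. Whether the 3 samples are different mice, different cultures or repeats of 1 culture is not given in the labels. *Hotair* itself was not analysed here, as no probe set carried its name, and its level could not serve as a check of the labels.

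Wnt proteins are secreted lipid-modified signals that bind a Frizzled receptor together with Lrp5 or Lrp6 and stabilise beta-catenin, which then acts with Tcf and Lef factors on target genes. The membrane ligases Znrf3 and Rnf43 remove Frizzled receptors from the cell surface. R-spondins, bound by Lgr4, Lgr5 or Lgr6, block these ligases and so raise the response to Wnt. Secreted Frizzled-related proteins and Wif1 bind Wnt ligands, Dickkopf proteins 1, 2 and 4 act through the Lrp co-receptors, Notum removes the lipid from Wnt, and Axin2 is a target that feeds back on beta-catenin. In skin, Wnt signals take part in hair follicle formation and in the patterning and growth of the dermis.

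The promoters of 4 receptors are shown because they are the receptors whose knockout and wild-type values did not overlap, *Fzd1* and *Lgr4* higher and *Fzd7* and *Lgr6* lower in the knockout. Each runs 5′ to 3′ from 250 bases before to 50 bases after the annotated start, from RefSeq on GRCm38.p6. Capitals mark a match to the core letters bound by Tcf and Lef factors.
Fzd1, chr5:4758167-4758466, minus strand: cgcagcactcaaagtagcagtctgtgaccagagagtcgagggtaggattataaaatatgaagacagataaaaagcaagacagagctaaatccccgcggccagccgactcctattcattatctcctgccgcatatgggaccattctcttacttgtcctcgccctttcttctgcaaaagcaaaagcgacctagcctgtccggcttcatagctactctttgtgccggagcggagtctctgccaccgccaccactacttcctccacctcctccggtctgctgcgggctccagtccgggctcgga
Lgr4, chr2:109917397-109917696, plus strand: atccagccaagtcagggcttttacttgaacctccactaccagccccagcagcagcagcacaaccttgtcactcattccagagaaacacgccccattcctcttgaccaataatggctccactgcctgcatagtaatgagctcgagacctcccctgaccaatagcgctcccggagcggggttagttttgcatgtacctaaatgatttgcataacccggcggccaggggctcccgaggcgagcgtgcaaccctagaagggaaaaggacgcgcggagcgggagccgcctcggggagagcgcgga
Fzd7, chr1:59481897-59482196, plus strand: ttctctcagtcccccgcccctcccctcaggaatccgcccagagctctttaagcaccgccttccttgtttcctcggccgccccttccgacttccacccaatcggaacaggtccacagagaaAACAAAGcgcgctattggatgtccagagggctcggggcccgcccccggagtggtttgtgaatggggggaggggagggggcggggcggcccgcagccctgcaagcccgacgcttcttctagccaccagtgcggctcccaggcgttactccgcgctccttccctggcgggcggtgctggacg
Lgr6, chr1:135105227-135105526, minus strand: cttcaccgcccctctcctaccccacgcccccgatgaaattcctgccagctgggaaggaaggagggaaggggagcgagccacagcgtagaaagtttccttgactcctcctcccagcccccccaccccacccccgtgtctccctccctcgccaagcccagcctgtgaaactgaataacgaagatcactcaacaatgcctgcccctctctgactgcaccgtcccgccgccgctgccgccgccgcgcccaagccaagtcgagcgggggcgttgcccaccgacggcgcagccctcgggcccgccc
The letters searched, on both strands, were CTTTG followed by 2 bases that were each A or T. These windows held 0 matches for *Fzd1*, *Lgr4* and *Lgr6*. That of *Fzd7* held 1, read as AACAAAG on the gene's strand and beginning 130 bases before the start. RefSeq promoters were matched for 32 of the 51 members. Of their 36 promoters 5 held a match, or 13.9%, and of all 32851 promoters of the same length 16.9% did. The 4 windows had 54%, 58.3%, 66.7% and 67.7% G and C in the order shown, against a median of 67.2% over the members' promoters and 52.7% over all promoters. A match in the letters is a description and does not show that a factor binds there.

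Values are log2 probe set summaries, on which a difference of 1 is a fold of 2, and values of replicates 1, 2 and 3 are given in that order. The replicate 1 arrays of both genotypes stood apart from the 4 others. Mean log2 levels of 14 proliferation markers were 8.83, 11.00 and 11.18 on the knockout arrays and 8.20, 11.07 and 10.86 on the wild-type arrays. Control probe sets at the 3′ end exceeded those at the 5′ end, as they do in degraded RNA, by 0.63 for *Actb* and 0.75 for *Gapdh* on knockout replicate 1, with the next highest array at 0.21 and −0.03. Leukocyte markers had their highest mean level on knockout replicate 1, with a value over 9 measured of 10 markers of 6.81 there, 5.35 and 5.12 on the other knockout arrays and 5.39 to 5.92 in wild type. *Tyrobp* was at 9.14 on that array and at 4.88 to 5.45 on the others, while the pan-leukocyte marker *Ptprc* was at 4.23 there and at 3.84 to 4.44 on the others. The part of such cells in the members' values was not tested. Because replicate 1 stood apart, differences are also given for replicates 2 and 3 alone, here called without replicate 1. Fibroblast markers had high mean log2 levels, over 10 of 10 markers, of 11.89 to 12.39 in the knockout and 10.06 to 11.68 in wild type. Not every marker was high on every array. On wild-type replicate 2, *Thy1* was at 4.65 and *Lum* at 5.03, below that array's median of 5.62. Epithelial cells also make several Wnts, and the 10 measured of 11 keratinocyte markers had mean levels of 4.95 to 5.30 in the knockout and 5.15 to 5.43 in wild type, with 5 of them below a mean of 5. In bulk RNA, fewer cells of a type and less RNA per cell cannot be told apart.

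Over all 6 arrays no member passed the test between genotypes. By limma with Benjamini-Hochberg adjustment 0 of 51 members and 0 of 18193 genes (0%) had an adjusted p under 0.05, the smallest being 0.743 for members and for all genes. Members lay on both sides, 25 above 0 and 26 below, with a median difference of −0.02 against 0.01 over all genes. With equal array medians, which moved the median of all genes by −0.11, 15 lay above 0 and 36 below, and after a second quantile normalization 20 and 31 did. At an unadjusted p under 0.05 there were 10 members, 6 higher and 4 lower, which is 19.6% of the members beside 6.68% of all genes (4.01% higher and 2.67% lower). Knockout and wild-type values did not overlap for 11 members, 6 higher and 5 lower, or 21.6%, beside 9.93% of all genes. Differences of more than 1 on the log2 scale were found for 9 members, 17.6%, beside 5.5% of all genes. These shares describe a set of 51 chosen genes and are not a test of the set.

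Without both replicate 1 arrays, limma called 11 members, 5 higher and 6 lower, or 21.6%, beside 14% of all genes (7.56% higher and 6.41% lower). The 5 called higher in the knockout were *Fzd1*, *Lgr4*, *Rspo3*, *Dkk3* and *Wnt16*, and the 6 called lower were *Fzd7*, *Lgr5*, *Lgr6*, *Rnf43*, *Wnt7b* and *Dkk2*. This fit has 2 arrays per genotype, so its error rests largely on the spread that limma pools over genes. Another fit weighted arrays by how closely they followed the fitted values. Replicate 1 had the lowest weight in each genotype (0.329 in the knockout and 0.244 in wild type). Replicates 2 and 3 had 1.415 and 2.651 in the knockout and 3.182 and 1.044 in wild type, so wild-type replicate 2 counted most. The weighted fit called 13 members, 7 higher and 6 lower, or 25.5%, beside 11.5% of all genes (6.7% higher and 4.85% lower). The same 10 members were called in both fits, 76.9% of the 13 and 90.9% of the 11. Both fits use the same data and drop or down-weight the same arrays, so this overlap is not independent support. The overlap over all genes was not counted. *Sfrp2*, *Axin2* and *Wnt10a* were called only with array weights, and *Lgr5* only without replicate 1.

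**Figure D1:**
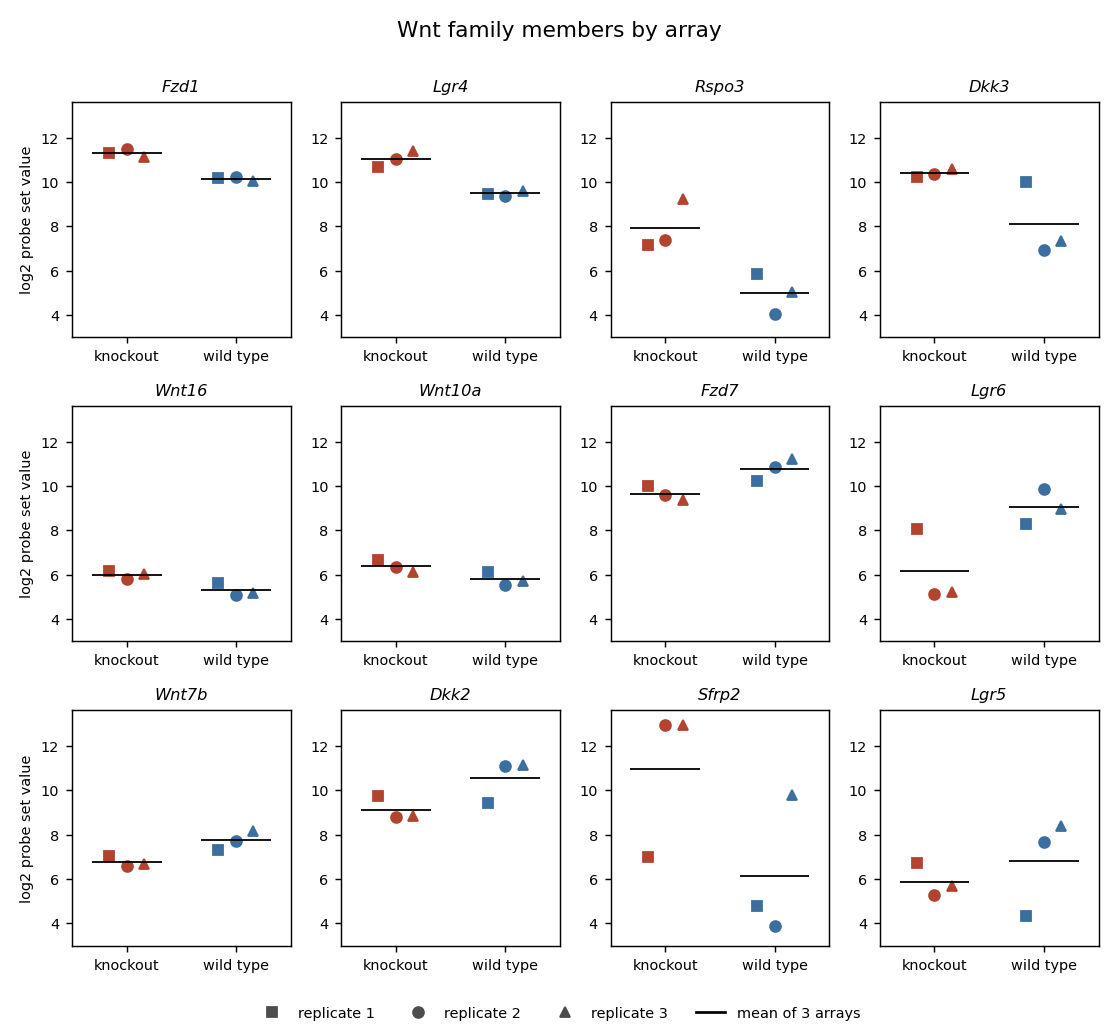
Log2 probe set values of 12 members on each array (vertical axis), with the knockout on the left and wild type on the right of each panel, a symbol for each replicate number and a line at the mean of 3 arrays. *Fzd1* and *Lgr4* are separated between genotypes on every array, whereas *Dkk3*, *Lgr6* and *Dkk2* differ mainly between replicates 2 and 3 of the genotypes. *Lgr5* is higher in the knockout in replicate 1 and lower in replicates 2 and 3.

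Among the Frizzled receptors, *Fzd1* was higher and *Fzd7* lower in the knockout, with no overlap between genotypes for either. *Fzd1* measured 11.31, 11.46 and 11.11 in the knockout, against 10.19, 10.20 and 10.03 in wild type. All knockout arrays lay above all wild-type arrays, and each replicate differed by about the same amount (1.12, 1.26 and 1.08). The means were 11.29 ± 0.17 in the knockout and 10.14 ± 0.10 in wild type (SD, n = 3), a difference of 1.15 ± 0.15 (SE) with a 95% interval of 0.78 to 1.52. The fold was 2.22. *Fzd1* ranked 2 among all genes by p, without passing the adjusted threshold (limma adjusted p = 0.743), and was called without replicate 1 (1.17, limma adjusted p = 0.0197). Its other, dim probe set differed by 0.42 in the same direction.

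*Fzd7* measured 10.01, 9.60 and 9.37 in the knockout, against 10.24, 10.84 and 11.21 in wild type. The groups did not overlap, but replicate 1 differed by only −0.24, against −1.24 and −1.84 for replicates 2 and 3. The means were 9.66 ± 0.32 in the knockout and 10.76 ± 0.49 in wild type (SD, n = 3), a difference of −1.10 ± 0.30 (SE). It was −1.54 without replicate 1 (limma adjusted p = 0.0121), and the other probe set differed by −0.20.

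*Fzd2*, the other Frizzled with a mean of at least 9, measured 10.82, 11.70 and 11.68 in the knockout, against 11.13, 11.91 and 10.91 in wild type, and the groups overlapped. Its difference was 0.08 ± 0.37 (SE), with a 95% interval of −0.82 to 0.98, and 0.28 without replicate 1. *Fzd5* was at −0.70 ± 0.48 and *Fzd4*, a receptor also known for binding the ligand Norrin, at 0.54 ± 0.32 (SE), and without replicate 1 they were at −0.91 and 0.88 and were not called. *Fzd5* measured 8.22, 7.83 and 7.75 in the knockout, against 8.52, 7.76 and 9.63 in wild type, and without wild-type replicate 3 its difference was −0.21. The 5 others, *Fzd3*, *Fzd6*, *Fzd8*, *Fzd9* and *Fzd10*, differed by −0.20 to 0.05 (−0.37 to 0.10 without replicate 1) and overlapped between genotypes. The 10 Frizzled receptors divided into 4 higher and 6 lower means (median −0.02).

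The co-receptors did not separate by genotype. *Lrp6* measured 9.15, 9.95 and 9.57 in the knockout, against 8.02, 10.17 and 10.33 in wild type, where replicate 1 was low. Its difference was 0.05 ± 0.66 (SE) over all arrays, −0.49 without replicate 1 and −0.70 without wild-type replicate 1 alone. *Lrp5* measured 6.56, 5.97 and 6.77 in the knockout, against 6.68, 6.70 and 7.57 in wild type, a difference of −0.55 ± 0.33 (SE). The difference was −0.76 without replicate 1, −0.26 without wild-type replicate 3 and −0.32 without knockout replicate 2. Within each replicate number *Lrp5* was lower in the knockout (−0.13, −0.72 and −0.81). The groups overlapped, as knockout replicate 3 lay above wild-type replicates 1 and 2. The steady sign therefore rests on pairing by number, and numbers 2 and 3 are not told apart by these data.

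**Figure D2:**
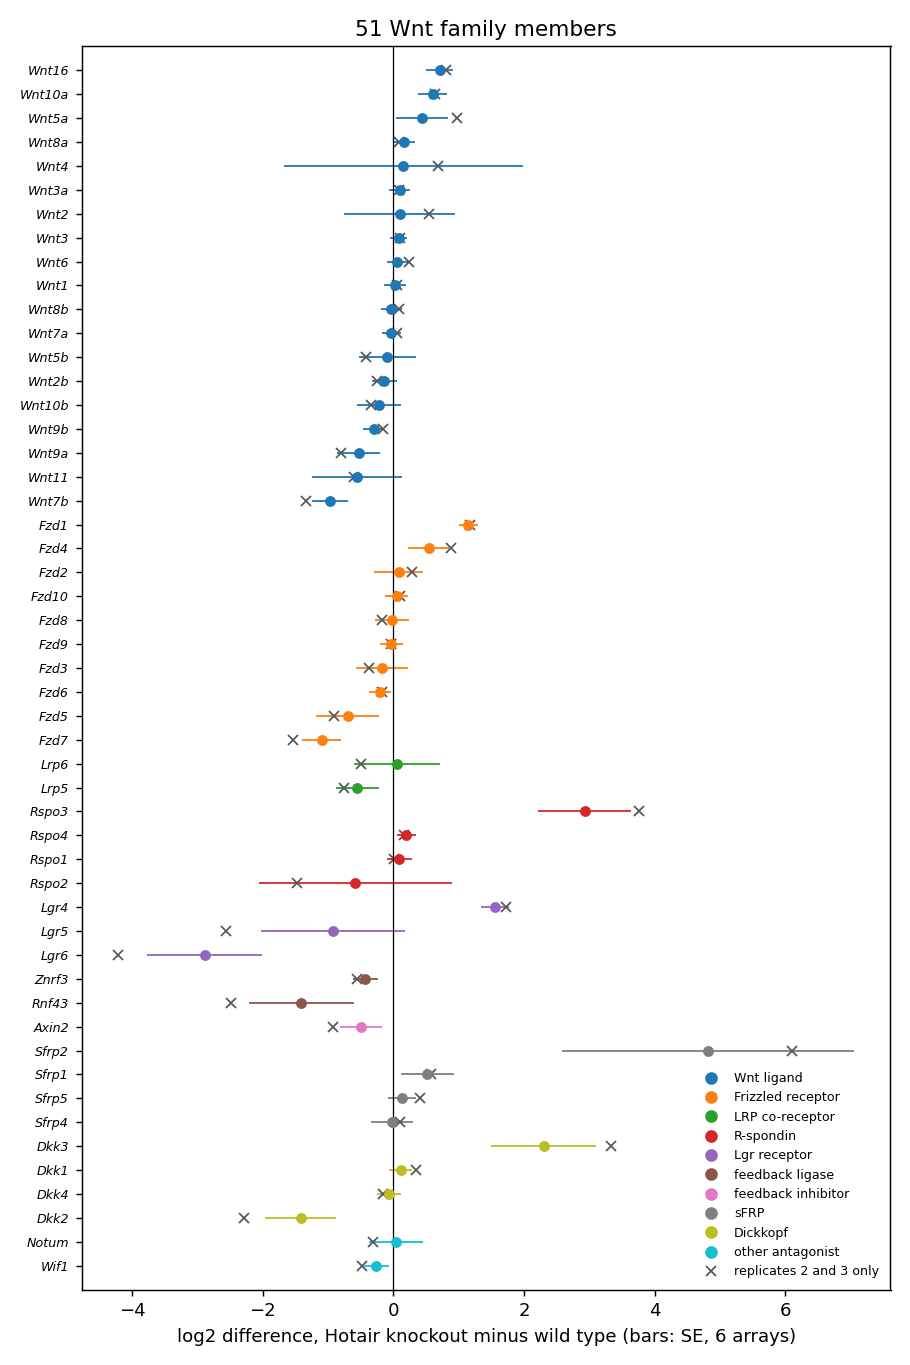
Difference of each of the 51 members between knockout and wild type on the log2 scale (horizontal axis; points with SE bars over 6 arrays), ordered within roles, with crosses for replicates 2 and 3 alone. *Sfrp2*, *Rspo3* and *Dkk3* lie farthest to the right (4.82, 2.93 and 2.30) and *Lgr6*, *Dkk2* and *Rnf43* farthest to the left (−2.89, −1.42 and −1.41), while the Wnt ligands lie between −0.97 and 0.71.

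Of the 3 receptors for R-spondins, *Lgr4* was higher and *Lgr6* lower in the knockout. *Lgr4* measured 10.69, 11.02 and 11.39 in the knockout, against 9.46, 9.37 and 9.60 in wild type. Every knockout array was above every wild-type array, by 1.23, 1.65 and 1.79 within replicates 1, 2 and 3. The means were 11.04 ± 0.35 in the knockout and 9.48 ± 0.12 in wild type (SD, n = 3), a difference of 1.56 ± 0.21 (SE) with a 95% interval of 1.04 to 2.08 and a fold of 2.94. *Lgr4* ranked 3 among all genes by p (limma adjusted p = 0.743) and was called without replicate 1 (1.72, limma adjusted p = 0.0104). Its second probe set was dim, with 4.35 to 4.59 in the knockout and 4.48 to 4.79 in wild type, and differed by −0.10.

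*Lgr6*, which marks stem cells of the hair follicle isthmus in mouse skin, measured 8.07, 5.15 and 5.23 in the knockout, against 8.31, 9.86 and 8.95 in wild type. The groups did not overlap, yet knockout replicate 1 was near the wild-type level and replicate 1 differed by −0.24, against −4.71 and −3.71 for replicates 2 and 3. The means were 6.15 ± 1.66 in the knockout and 9.04 ± 0.78 in wild type (SD, n = 3), a difference of −2.89 ± 0.88 (SE). Without replicate 1 it was −4.21 (limma adjusted p = 0.00562), a level 18.5-fold higher in wild type. Knockout replicates 2 and 3 lay below their array medians of 5.68 and 5.56, so the size of this fold is uncertain. The second probe set of *Lgr6* differed by −1.80 and likewise did not overlap between genotypes.

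*Lgr5*, a marker of cycling stem cells in gut and hair follicle and itself a Wnt target, measured 6.71, 5.26 and 5.67 in the knockout, against 4.34, 7.68 and 8.38 in wild type. The direction changed with the replicate number, at 2.37 in replicate 1 and −2.42 and −2.72 in replicates 2 and 3. Over all arrays the difference was −0.92 ± 1.10 (SE), less than its error, and without replicate 1 it was −2.57 (limma adjusted p = 0.0103). The second, dim probe set differed by −0.24.

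Of the R-spondins, *Rspo3* was the member with a separation on all arrays. It measured 7.15, 7.36 and 9.23 in the knockout, against 5.87, 4.05 and 5.03 in wild type. Each replicate was higher in the knockout, by 1.28, 3.31 and 4.21. The means were 7.91 ± 1.15 in the knockout and 4.98 ± 0.91 in wild type (SD, n = 3), a difference of 2.93 ± 0.71 (SE) with a 95% interval of 1.19 to 4.68. Without replicate 1 it was 3.76 (limma adjusted p = 0.0263). Wild-type replicates 2 and 3 lay below their array medians of 5.62 and 5.58, so the size of this difference is uncertain. The second probe set stayed between 4.26 and 4.80 on all arrays and differed by −0.22.

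*Rspo2* measured 5.98, 7.83 and 8.10 in the knockout, against 4.78, 10.45 and 8.42 in wild type. Both replicate 1 arrays were low, and the wild-type arrays spanned more than the knockout arrays. Its difference was −0.58 ± 1.48 (SE), and the genotypes overlapped. It was −1.47 without replicate 1 and −2.13 without wild-type replicate 1 alone, and above 0 without wild-type replicate 2 (0.70) or knockout replicate 1 (0.08), so no direction can be given. *Rspo1* and *Rspo4* had means of 3.89 and 3.93 over the 6 arrays and differed by 0.09 and 0.20 (0.01 and 0.17 without replicate 1).

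The membrane ligases that R-spondins block, and *Axin2*, had lower means in the knockout but did not pass over all arrays. *Rnf43* measured 4.62, 3.87 and 4.12 in the knockout, against 3.85, 7.0 and 5.97 in wild type. Wild-type replicate 1 was at the knockout level, so replicates 2 and 3 carried the difference (−3.14 and −1.84, against 0.77 in replicate 1). It was −1.41 ± 0.80 (SE) over all arrays and −2.49 without replicate 1 (limma adjusted p = 0.0158). All knockout arrays and wild-type replicate 1 lay below the array medians of 5.56 to 5.68, where signal above background is uncertain. *Znrf3* measured 7.62, 7.43 and 7.02 in the knockout, against 7.82, 7.75 and 7.80 in wild type, and did not overlap. Its difference was small, −0.43 ± 0.19 (SE), and was not called without replicate 1 (−0.55, limma adjusted p = 0.135).

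*Axin2*, a widely used readout of beta-catenin activity, measured 6.72, 6.32 and 6.04 in the knockout, against 6.32, 7.35 and 6.88 in wild type. Replicate 1 differed by 0.40 and replicates 2 and 3 by −1.03 and −0.84. The difference was −0.49 ± 0.32 (SE) over all arrays. Without replicate 1 it was −0.93 (limma adjusted p = 0.0513), and with array weights it was called lower (limma adjusted p = 0.0376). The second probe set, with 3.29 to 3.80 on all arrays, differed by 0.09.

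**Figure D3:**
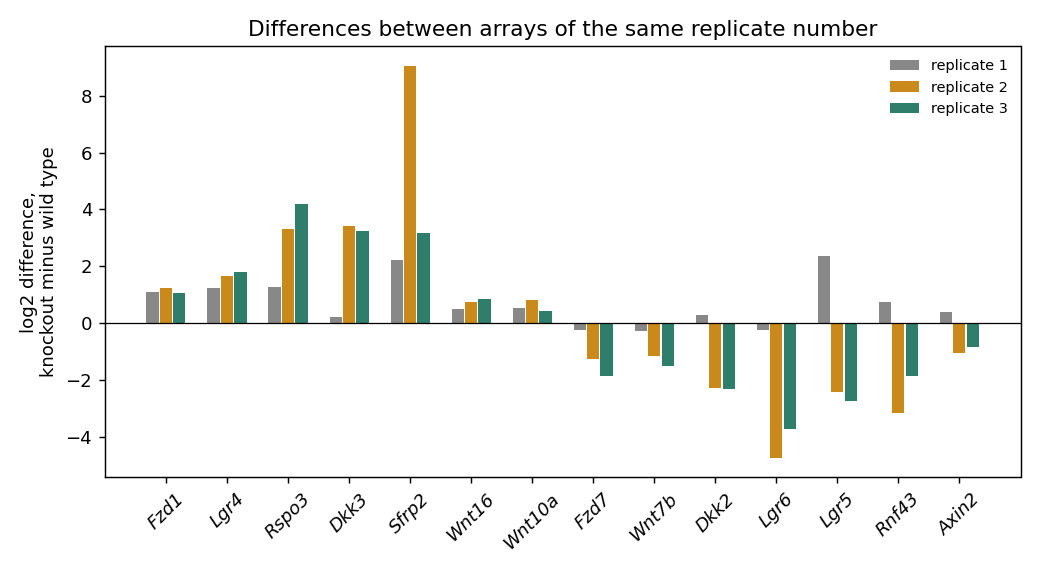
Log2 difference between knockout and wild type within each replicate number (vertical axis) for 14 members, with a bar for each replicate. *Fzd1*, *Lgr4*, *Rspo3*, *Dkk3*, *Sfrp2*, *Wnt16* and *Wnt10a* are higher in the knockout in all 3 replicates, *Dkk3* by only 0.23 in replicate 1. *Lgr5*, *Rnf43*, *Axin2* and *Dkk2* have the opposite sign in replicate 1 (2.37, 0.77, 0.40 and 0.31).

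*Sfrp2*, a secreted Frizzled-related protein made by dermal fibroblasts, measured 7.0, 12.94 and 12.96 in the knockout, against 4.76, 3.89 and 9.78 in wild type. Wild-type replicate 3 exceeded knockout replicate 1, so the groups overlapped, although each replicate was higher in the knockout, by 2.24, 9.04 and 3.18. The means were 10.97 ± 3.43 in the knockout and 6.14 ± 3.18 in wild type (SD, n = 3). Its difference of 4.82 ± 2.23 (SE) ranked 3 among all genes by size, but its 95% interval ran from −0.67 to 10.32. Without replicate 1 it was 6.11 and was not called (limma adjusted p = 0.0936), and with array weights it was called higher (limma adjusted p = 0.043). It has 1 probe set. Wild-type replicates 1 and 2 lay below their array medians of 5.58 and 5.62, so the size of its difference is uncertain.

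*Sfrp1* measured 7.78, 6.91 and 6.89 in the knockout, against 7.38, 6.52 and 6.11 in wild type. It was higher in the knockout within every replicate (0.40, 0.39 and 0.78), while the groups overlapped. Its difference was 0.52 ± 0.41 (SE), with 0.58 without replicate 1, and all 5 probe sets lay above 0 (0.34 to 1.22). *Sfrp4* and *Sfrp5* differed by −0.02 and 0.13 (0.10 and 0.41 without replicate 1).

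*Dkk3*, the Dickkopf protein whose role in Wnt signalling is least settled, measured 10.24, 10.35 and 10.56 in the knockout, against 10.00, 6.93 and 7.32 in wild type. The groups did not overlap, but wild-type replicate 1 was at nearly the knockout level, so that the replicates differed by 0.23, 3.43 and 3.25. The means were 10.39 ± 0.17 in the knockout and 8.08 ± 1.68 in wild type (SD, n = 3), a difference of 2.30 ± 0.81 (SE). Without replicate 1 it was 3.34 (limma adjusted p = 0.00482). The second probe set gave nearly the same difference, 2.28.

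*Dkk2* ran the other way and measured 9.73, 8.81 and 8.84 in the knockout, against 9.42, 11.08 and 11.15 in wild type. Replicate 1 differed by 0.31 and the others by −2.27 and −2.31, so the groups overlapped. Over all arrays the difference was −1.42 ± 0.54 (SE), and without replicate 1 it was −2.29 (limma adjusted p = 0.00482). *Dkk1* and *Dkk4*, with means of 3.92 and 4.37, differed by 0.11 and −0.07 (0.34 and −0.16 without replicate 1). *Wif1* was also dim, with a mean of 3.45 and a difference of −0.26, and *Notum* differed by 0.04 ± 0.42 (SE). Without replicate 1 they were at −0.48 and −0.31 and were not called.

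Of the 19 Wnt ligands, 10 lay above 0 and 9 below, and 0 differed by more than 1 on the log2 scale. *Wnt5a*, a ligand of the beta-catenin-independent branch and the ligand with a mean of at least 9, measured 10.30, 10.52 and 10.91 in the knockout, against 10.95, 9.97 and 9.49 in wild type. Wild-type replicate 1 was the highest of the 6 arrays, and the replicates differed by −0.66, 0.54 and 1.42. Its difference was 0.44 ± 0.40 (SE), and 0.98 without replicate 1 (limma adjusted p = 0.0557). Its 4 probe sets lay between 0.27 and 0.44.

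*Wnt16* and *Wnt10a* had higher values in the knockout, but each has 1 probe set, with values near the array medians of 5.56 to 5.68. Signal above background is uncertain at such levels. *Wnt16* measured 6.17, 5.83 and 6.02 in the knockout, against 5.65, 5.07 and 5.16 in wild type, a difference of 0.71 ± 0.21 (SE). *Wnt10a*, a ligand of hair and tooth development, measured 6.66, 6.37 and 6.14 in the knockout, against 6.13, 5.54 and 5.70 in wild type, a difference of 0.60 ± 0.22 (SE). Neither overlapped between genotypes, and each was higher in the knockout within every replicate. Without replicate 1 *Wnt16* was called (0.81, limma adjusted p = 0.031) and *Wnt10a* was not (0.64, limma adjusted p = 0.0673).

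*Wnt7b*, known from skin epithelium and lung, measured 7.05, 6.59 and 6.67 in the knockout, against 7.30, 7.73 and 8.18 in wild type. The groups did not overlap, and replicate 1 differed least (−0.25, against −1.14 and −1.51). Its difference was −0.97 ± 0.27 (SE), with −0.67 for the second probe set, and −1.33 without replicate 1 (limma adjusted p = 0.0172). Of the keratinocyte markers, *Dsp*, a desmosomal protein, was also lower, at −2.20 ± 0.54 (SE), while the 10 keratinocyte markers had 4 above 0, 6 below and a median of −0.02. The part of such cells in the *Wnt7b* difference was not tested.

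*Wnt11*, which acts in cell polarity, measured 7.33, 5.47 and 5.57 in the knockout, against 7.78, 6.07 and 6.19 in wild type. Replicate 1 was high in both genotypes, and within replicates the knockout was lower by a steady amount (−0.45, −0.61 and −0.61). Its difference was −0.56 with an SE of 0.69 without the replicate block and 0.15 with it, and it was not called with the block (limma adjusted p = 0.424) or without replicate 1 (−0.61, limma adjusted p = 0.0562). *Wnt9a* was at −0.53 ± 0.33 and *Wnt9b* at −0.30 ± 0.16 (SE), the second without overlap between genotypes, and without replicate 1 they were at −0.80 and −0.16. The remaining 12 ligands overlapped between genotypes and differed by −0.22 to 0.16 (−0.42 to 0.69 without replicate 1).

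Several members followed the replicate number more than the genotype. For 17 of the 51, or 33.3%, both replicate 1 arrays lay on one side of the 4 others, 14 above and 3 below, beside 37.1% of all genes. *Wnt4* measured 10.22, 6.19 and 6.68 in the knockout, against 11.17, 5.92 and 5.55 in wild type, and its second probe set had the same shape. *Wnt2* measured 6.37, 4.69 and 5.37 in the knockout, against 7.15, 4.67 and 4.30 in wild type. These 2 ligands differed between genotypes by 0.15 ± 1.83 and 0.10 ± 0.85 (SE), far less than between arrays of the same genotype, and by 0.69 and 0.54 without replicate 1. *Rspo2*, *Lrp6* and *Wnt10b* were the 3 members lower on both replicate 1 arrays.

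**Figure D4:**
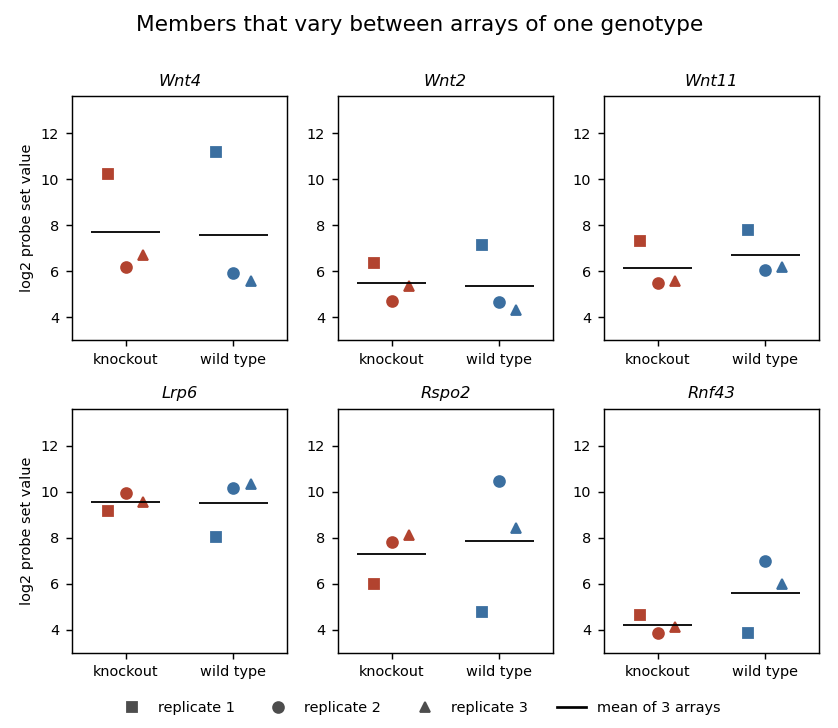
Log2 probe set values of 6 members on each array (vertical axis), knockout left and wild type right, with a symbol for each replicate number and a line at the mean of 3 arrays. *Wnt4*, *Wnt2* and *Wnt11* are high and *Lrp6* and *Rspo2* low on the replicate 1 arrays of both genotypes, and *Rnf43* is at 3.85 on wild-type replicate 1, against 7.0 and 5.97 on the other wild-type arrays.

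The rest of the pathway was read from fixed lists, none of whose members passed over all 6 arrays. Of 29 measured genes of the cytoplasmic and nuclear pathway, 17 differences were positive and 12 negative (median 0.02), and 6 were higher and 0 lower at an unadjusted p under 0.05, beside 4.01% and 2.67% of all genes. These 6 were *Dact1*, a Dishevelled-binding protein (1.62 ± 0.37, SE), *Tcf7l1*, a Tcf factor that mostly represses (1.32 ± 0.43), the co-repressor *Tle2* (0.69 ± 0.26), the scaffold *Axin1* (0.52 ± 0.20), and *Pygo2* and *Bcl9*, which serve beta-catenin in the nucleus (0.52 ± 0.18 and 0.42 ± 0.16). *Dact1* measured 7.58, 8.48 and 8.52 in the knockout, against 7.09, 6.08 and 6.56 in wild type. Without replicate 1 the median was 0.19, and 4 genes of this list were called higher and 3 lower, beside 7.56% and 6.41% of all genes. The lower ones were *Tle1* (−1.59), *Dvl1* (−0.71) and *Tcf7l2* (−0.68). Within replicate 1, *Tle1* was higher in the knockout (0.65), and *Dvl1* and *Tcf7l2* were at −0.11 and 0.04.

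The list of beta-catenin target genes, 6 of whose 19 measured genes are also members described above, had 7 above 0 and 12 below, with a median of −0.14 against 0.01 over all genes. None reached an unadjusted p under 0.05, and the smallest p was that of *Znrf3*. Without replicate 1 its median was −0.30, and it had 0 genes called higher and 2 called lower, *Lgr5* and *Rnf43*, beside 7.56% and 6.41% of all genes.

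Of 18 genes of planar polarity and non-canonical receptors, 12 lay above 0 and 6 below (median 0.23). At an unadjusted p under 0.05 were *Prickle1*, a planar polarity protein (1.79 ± 0.59, SE), and *Ror2*, a Wnt5a receptor (0.60 ± 0.19), both higher, beside 4.01% of all genes. *Ror2* did not overlap between genotypes. *Prickle1* did, and differed by −0.07 in replicate 1, against 3.14 and 2.28 in replicates 2 and 3. Without replicate 1 the median was 0.22, and 5 were called higher, beside 7.56% of all genes. They were *Prickle1*, *Ror2*, *Ptk7* (1.96), *Vangl2* (1.55) and *Mcam* (1.49). *Ror1* was called lower (−0.89), beside 6.41% of all genes. Within replicate 1, *Ptk7*, *Vangl2* and *Mcam* were lower in the knockout (−0.55, −0.41 and −1.64) and *Ror1* was higher (0.23). Of 14 other secreted and membrane modulators 6 had a positive and 8 a negative difference (median −0.10), and *Gpc6*, a glypican, was at 0.91 ± 0.29 (SE). Without replicate 1 the median was 0.21, and 5 were called higher, beside 7.56% of all genes, namely *Cthrc1* (3.72), the glypican *Gpc3* (2.65), *Igfbp4* (1.73), *Gpc6* (1.22) and the Frizzled-related protein *Frzb* (0.78). The glypican *Gpc4* was called lower (−0.78), beside 6.41% of all genes. Within replicate 1, *Cthrc1*, *Gpc3* and *Frzb* were lower in the knockout (−0.07, −0.68 and −0.71). *Igfbp4* and *Gpc6* were higher there (0.94 and 0.27), and *Gpc4* was at −0.07. Among 7 genes of Wnt secretion the median was 0.14, with *Snx3*, which recycles the Wnt carrier Wls, at −0.62 ± 0.20 (SE), and without replicate 1 the median was 0.02 and 0 were called.

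Most fibroblast markers also had higher means in the knockout. Of 10, 9 did, with a median difference of 1.12, and *Dcn*, *Lum* and *Col3a1* were at 3.10 ± 1.08, 2.64 ± 1.06 and 0.59 ± 0.23 (SE). Without replicate 1 the median was 1.34, and 5 were called higher and 0 lower, beside 7.56% and 6.41% of all genes. Mean levels of the list were 11.89, 12.39 and 12.21 on the knockout arrays and 11.68, 10.06 and 10.88 on the wild-type arrays. *Sfrp2* measured 7.0, 12.94 and 12.96, against 4.76, 3.89 and 9.78. Both were lowest on wild-type replicate 2. Wild-type replicate 1 had a higher list mean than wild-type replicate 3 but a lower *Sfrp2* value. The part of fibroblast content in the differences of *Sfrp2*, *Rspo3* and *Dkk3* was not tested.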

How the data were processed

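Affymetrix whole-genome mouse arrays read biotin-labelled RNA from 3 *Hotair* knockout and 3 wild-type samples. Per the submitters' processing notes, the authors ran RMA under R 2.11.1, and the deposited table holds its log2 value for each probe set and array. RMA equalises the distribution of intensities across arrays, so a change in total RNA cannot be seen, and it compresses differences of dim probe sets. Array medians were 5.56 to 5.68. Of 45037 non-control probe sets, 34945 had 1 gene in the platform annotation, 932 had several and 9160 none. Only the first were used.

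The comparison used limma 3.58.1 under R 4.3.3 (genotype as the only term, lmFit and eBayes, two-sided, Benjamini-Hochberg at 0.05 over all 18193 genes). The fit was also run on simulated data with independent noise on each array. Those data held no shift shared by the replicate 1 arrays, so that run does not test the fit under such a shift. Since the origin of the replicates is not stated, p-values may reflect technical spread alone, and 3 arrays per genotype limit the precision. Members and lists were chosen with earlier results of these data known, as was the choice to leave out replicate 1. By a rule, every array's value was printed for members with an unadjusted p under 0.05 (with or without the block), without overlap at a difference of at least 0.5, or with a mean of at least 9, and from each list the genes with an unadjusted p under 0.05, or else the one with the smallest p, could be named. *Lgr5*, *Rnf43*, *Axin2*, *Znrf3*, *Fzd5*, *Rspo2*, *Wnt4*, *Wnt2*, *Tyrobp*, *Ptprc*, *Thy1*, *Lum*, *Prickle1*, *Ror2*, *Gpc6* and list genes called only without replicate 1 were given in more detail after their values were seen.

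Both genotypes carry replicate numbers 1 to 3 in their titles. Deviations from genotype means, over genes, correlated at 0.51, 0.39 and 0.35 between arrays numbered 1, 2 and 3, so by the rule of correlations over 0.1 the numbers were taken to pair the arrays. Wild-type replicate 3 correlated more with knockout replicate 2 (0.43), so the numbers 2 and 3 are not told apart by these data. Alternatives were the block, other eBayes settings, a filter on dim genes, renormalisation, equal medians, array weights, other probe sets or thresholds, and leaving out arrays.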

Additional observations from a re-analysis of the deposited data

How the results depend on the processing

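No member was called by limma over all 6 arrays, with the replicate block (0 members and 0 genes, smallest adjusted p 0.424), with other eBayes settings, a filter on means under 6, quantile normalization again, equal array medians, other choices of probe set, all probe sets in one fit or a threshold of 0.1. At an unadjusted p under 0.05 the block gave 13 members, 8 higher and 5 lower, beside 11.1% of all genes, and no block gave 10; over all probe sets 5.34% reached it. Array weights called 13 members and 2101 genes, and leaving out both replicate 1 arrays called 11 members and 2542 genes. Leaving out 1 array called 0 members and 0 to 87 genes, the 87 without knockout replicate 1, where the smallest adjusted p of a member was 0.0504, for *Lgr4*. The median difference of members ranged from −0.123 with equal array medians to 0.023 with array weights, and from −0.099 to 0.071 when 1 array was left out. Equal array medians moved the median of all genes by −0.11, and 10 members changed sign there, *Fzd2*, *Fzd10*, *Lrp6*, *Rspo1*, *Notum* and 5 Wnt ligands. Of the 51 members 24 differed by more than their SE over all arrays, and 0 of these changed sign in any of the 9 other settings or the 6 fits without 1 array, whereas 0 to 10 of the other 27 did per setting. The block, the other eBayes settings and the filter, which kept 35 members, leave each difference unchanged by design. No sign could change in them. For the other settings too, the 24 were picked as larger than their error on these same arrays. A steady sign among the 24 was therefore largely set in advance and is not further support. With 1 array left out, *Fzd1* ranged from 1.07 to 1.24, *Lgr4* from 1.38 to 1.73, *Rspo3* from 2.27 to 3.38, *Dkk3* from 1.73 to 3.26, *Lgr6* from −3.85 to −2.39 and *Sfrp2* from 3.70 to 6.81. Of 30 members with several probe sets, 19 had all of them on one side of 0. Dim probe sets limit the reading of the 12 members with a mean below 5, and of others with values near the array medians.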
